A study of Homo sapiens with 6 samples.

Results

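The 2 empty-vector control libraries of a study of mantle cell lymphoma were set against each other, 1 labelled Jeko and 1 labelled Rec-1. A gene row was kept where the mean of its 2 control values was at least 5 FPKM (fragments mapped to a transcript, scaled by its length and by all mapped fragments), which left 7712 of the 25277 rows of the table. Jeko and Rec-1 are human cell lines established from mantle cell lymphoma, a B-cell cancer. Both control lines carried a CRISPR/Cas9 vector with a tet-on (doxycycline-switched) system and no guide, and both received doxycycline for 48 h. The study's other 4 libraries had the same vector system and the same 48 h of doxycycline, with sgRNA 1 or sgRNA 2 against NR4A1, an orphan nuclear receptor, in each line. Those are called the guide libraries and are used below only to place the controls. The labels do not say whether a stable line was 1 clone or a pool, and the guide sequences were not analysed here.

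With 1 library a side, nothing separates a difference between the lines from a difference between 2 cultures or 2 library preparations: these cannot be told apart. No test was made and no p-value is given. A difference below is the value of log2(FPKM + 1) in the Rec-1 control minus that in the Jeko control, which understates the change of genes with low values, and a gene is called higher or lower where the difference was 2-fold or more, that is at least 1 on the log2 scale. In bulk RNA, fewer cells of a kind and less RNA per cell cannot be told apart either.

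Mantle cell lymphoma is defined by a translocation that places CCND1, the gene of cyclin D1, under an immunoglobulin enhancer, and most cases also express the transcription factor SOX11. Replication-dependent histone genes sit in clusters, are transcribed mainly in S phase, and give mRNAs that end in a stem-loop in place of a poly(A) tail. Some of them, HIST1H1C, HIST1H2AC, HIST1H2BD and HIST1H2BK among these, also give polyadenylated mRNAs. Immediate early genes such as FOS and EGR1 are induced within minutes of a stimulus, without new protein synthesis, and NR4A1 belongs to them.

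The gene targeted in the other libraries was measured in all 6. NR4A1 (chr12:52416616-52453291, plus strand, GRCh37) was at 5.99 FPKM in the Jeko control and 11.6 in the Rec-1 control. Jeko sgRNA 1 and 2 had 3.89 and 4.44, and Rec-1 sgRNA 1 and 2 had 27.4 and 12.7. Between the controls it differed by 0.85, short of 2-fold, and an mRNA level does not show whether Cas9 cut the gene. CCND1 (chr11:69455924-69469242, plus strand) was at 598 FPKM in the Jeko control, 815 and 442 in the Jeko guide libraries and 495 in the Rec-1 control. It was at 0.696 and 0.592 in Rec-1 sgRNA 1 and 2. SOX11 (chr2:5832516-5841517, plus strand) was at 7.11 FPKM in the Jeko control, with 11.1 and 10.2 for the Jeko guide libraries. The Rec-1 control had 10.8, and the Rec-1 guide libraries 3.60 and 2.45. For both markers of the disease the library labelled Rec-1 control lay with the Jeko libraries and apart from the Rec-1 guide libraries. The libraries labelled Rec-1 thus differed among themselves, and these values do not show which of them, if any, is mislabelled. It is called the Rec-1 control below only as the library with that label.

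Both libraries had the defining genes of B cells. CD79A and CD79B, the signalling chains of the B-cell receptor, were at 273 and 195.2 FPKM in the Jeko control and at 346 and 338 in the Rec-1 control. MS4A1, the gene of CD20, was at 90.0 and 120 FPKM. Plasma-cell genes aside, markers of other cells were at or near 0 in both. No gene of the T and NK cell, myeloid, fibroblast, epithelial, endothelial or erythroid lists reached the 5 FPKM filter. The summed FPKM of the T and NK cell list was 7.14 in the Jeko control and 6.22 in the Rec-1 control. Its highest single gene was PRF1 in the Jeko control, at 2.08, and CD3G in the Rec-1 control, at 1.75. COL1A1 gave most of the fibroblast sum (3.65 and 2.90), at 3.37 FPKM in the Jeko control and 2.56 in the Rec-1 control, and CD68 was the highest myeloid gene, at 1.02 and 1.16. MPO, ELANE, S100A8, S100A9, COL1A2, COL3A1, KRT5, CDH5 and HBB were listed at 0 in both. The plasma-cell list was not near 0: of its 7 genes 5 passed the filter, with a median difference of 0.04. It summed to 549 FPKM in the Jeko control and 614 in the Rec-1 control. MZB1 was at 201 FPKM in both, and TNFRSF17 at 136 and 140.

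Gene by gene the 2 controls were close. Over the 7229 protein-coding genes past the filter their log2 values had a Pearson r of 0.982, given as a description across genes, which are not independent. The median absolute difference was 0.15, against 0.25 between the 2 Jeko guide libraries and 0.26 between the 2 Rec-1 guide libraries. In all, 6752 genes (93.4%) lay within 0.5 of a difference of 0. The median difference was -0.03, and 44.7% of the genes were above 0. Among all 7712 rows 226 were called in either direction (2.93%). Among protein-coding genes 64 were higher in the Rec-1 control (0.885%) and 13 were lower (0.18%). The same 2-fold rule called 3.62% of these genes between the 2 Jeko guide libraries and 2.41% between the 2 Rec-1 guide libraries. It called 20.4% between the mean of the Rec-1 and the mean of the Jeko guide libraries, the comparison of the same 2 line labels that shares no library with the controls.

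Among protein-coding genes past the filter, none was on in one control and off in the other. No protein-coding gene past the filter was under 0.1 FPKM in either control, and CCL4 alone was under 1. Among the guide libraries, 189 protein-coding genes were at 5 FPKM or more in both libraries of one line and under 0.1 in both of the other. That count was made over all protein-coding rows, without the filter on the control mean. It is therefore not like for like with the count for the controls. Medians by chromosome were also flat between the controls, from -0.15 on chromosome 18 (102 genes) to 0.03 on chromosome 13 (141 genes) over 23 chromosomes. Between the guide libraries of the 2 lines they ran from -0.67, again on chromosome 18, to 0.11 on chromosome 20 (212 genes).

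**Figure D1:**
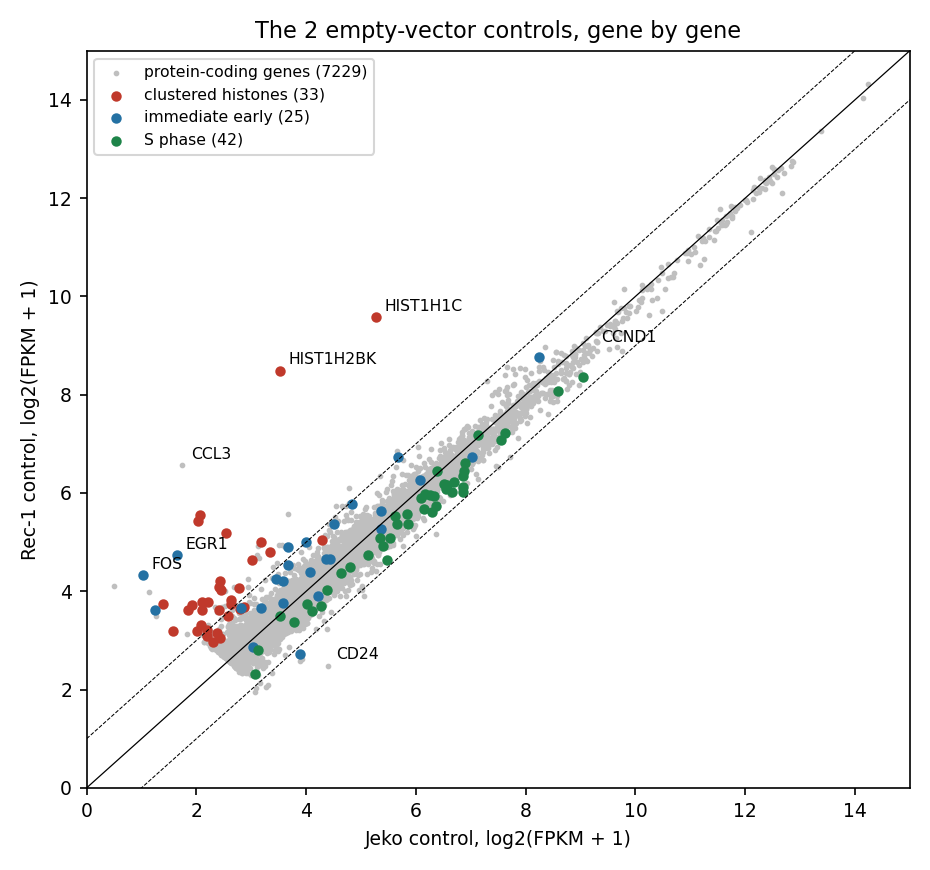
Each point is a protein-coding gene past the filter, with its value in the Jeko control on the x axis and in the Rec-1 control on the y axis, both as log2(FPKM + 1). The solid line marks equal values and the dashed lines a 2-fold difference. Clustered histone genes (red) lie above the solid line in 33 of 33 cases and S-phase genes (green) below it in 40 of 42. Of the 33 histone genes, 22 passed the filter only through the Rec-1 control, so these had to lie above the solid line.

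Of the protein-coding calls, 25 of the 64 higher genes were clustered histone genes. The sequences that follow show the 250 bases before the start site of HIST1H2BK and HIST1H2BJ, the 2 H2B genes with the highest differences, and of HIST1H1C, the linker histone gene with the highest level, so that their shared elements can be seen. They are from RefSeq (GRCh38.p14) and read 5′ to 3′ towards the gene. Capitals mark the octamer ATTTGCAT and the CCAAT box. They also mark the motif TATAAA. Each was searched on both strands, so some capitals spell a motif's reverse complement, and overlapping matches run together.
HIST1H2BK, chr6:27146859-27147108, minus strand: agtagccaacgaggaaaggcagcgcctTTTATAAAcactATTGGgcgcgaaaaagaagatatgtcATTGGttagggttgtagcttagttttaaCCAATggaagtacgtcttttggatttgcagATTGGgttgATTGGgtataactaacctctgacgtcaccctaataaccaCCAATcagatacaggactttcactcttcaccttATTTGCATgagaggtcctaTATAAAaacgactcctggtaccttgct
HIST1H2BJ, chr6:27132796-27133045, minus strand: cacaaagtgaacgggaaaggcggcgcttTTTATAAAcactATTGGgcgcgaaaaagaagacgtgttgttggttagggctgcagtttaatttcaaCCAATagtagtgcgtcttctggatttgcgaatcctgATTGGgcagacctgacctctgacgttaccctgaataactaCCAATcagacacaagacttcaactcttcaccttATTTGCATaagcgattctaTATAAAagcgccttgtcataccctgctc
HIST1H1C, chr6:26056471-26056720, minus strand: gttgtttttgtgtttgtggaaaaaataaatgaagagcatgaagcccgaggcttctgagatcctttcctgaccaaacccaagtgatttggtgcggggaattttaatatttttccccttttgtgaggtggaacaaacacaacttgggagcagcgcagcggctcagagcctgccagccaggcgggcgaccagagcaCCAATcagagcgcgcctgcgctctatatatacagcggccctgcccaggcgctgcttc

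In the HIST1H2BK stretch the octamer, which binds the POU factors OCT1 and OCT2, lay 46 to 39 bases before the start, and in HIST1H2BJ 47 to 40. HIST1H1C had 1 CCAAT box at 57 to 53 bases and no octamer in this window. The octamer was present in 17 of the 19 matched H2A and H2B genes past the filter (89.5%), in 0 of 10 matched H1, H3 and H4 genes, and in 1.66% of all 27305 promoter windows of this length. A CCAAT box was present in 19 of 19 and in 8 of 10, against 33.0% of all windows. TATAAA was present in 15 of 19 and in 4 of 10, against 11.1%. Matches to these letters are a description and not sites of binding.

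HIST1H2BK, an H2B gene (chr6:27114140-27114634, minus strand, GRCh37), was at 10.5 FPKM in the Jeko control and at 358.5 in the Rec-1 control. In the guide libraries it was at 10.5 and 16.4 (Jeko) and at 24.7 and 23.4 (Rec-1). The Rec-1 control thus stood alone, and its value was 34.0 times that of the Jeko control (a difference of 4.96). HIST1H1C, the gene of linker histone H1.2 (chr6:26055968-26056698, minus strand), was at 37.6 FPKM in the Jeko control and 763 in the Rec-1 control, 20.3 times as high (4.31). Its guide libraries were at 37.6, 47.9, 26.3 and 33.6, near the Jeko control and again far from the Rec-1 control.

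HIST1H2AC, an H2A gene, was at 3.17 FPKM in the Jeko control and 45.6 in the Rec-1 control (3.48), with guide libraries at 7.39, 13.4, 17.8 and 23.7. HIST1H2BJ was at 3.07 and 42.2 (3.41), with guide libraries at 8.64, 14.4, 24.8 and 24.6. HIST1H2BD was at 4.81 and 35.6 (2.66), with guide libraries at 26.7, 21.7, 28.8 and 20.2. In these 5 genes, grouped together after their values were seen, the Rec-1 control was the highest of the 6 libraries. Of the 33 histone genes past the filter that held for 1 other, HIST1H2BO, at 12.4 FPKM in the Rec-1 control against 1.62 in the Jeko control (2.36) and 9.17 in the next library, Rec-1 sgRNA 1.

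The remaining 28 histone genes had another order across the libraries. Their median FPKM was 4.32 in the Jeko control and 11.98 in its Rec-1 counterpart, 21.3 and 22.3 in Jeko sgRNA 1 and 2, and 18.4 and 22.9 in Rec-1 sgRNA 1 and 2. The Jeko control was the lowest of the 3 Jeko libraries in 28 of 28, and both Jeko guide libraries were above the Rec-1 control in 22 of 28. HIST1H4C, an H4 gene, was at 5.19 FPKM in the Jeko control and 13.2 in the Rec-1 control (1.20), while the guide libraries were between 77.7 and 201. HIST1H4E was at 8.04 and 31.0 (1.83), with guide libraries between 24.7 and 115.7.

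Across the list, 33 of 67 histone genes passed the filter, 66 being in the table. Of those 33, 25 were higher in the Rec-1 control, 0 were lower and 33 were above 0, with a median difference of 1.52 and a range of 0.61 to 4.96. The background was 0.885% of protein-coding genes called higher. The filter bears on this count, because 17 of the 25 had a Jeko control value under 5 FPKM and passed only through the Rec-1 control, so that they had to differ. Of all 33, 22 passed only in this way, so these had to be above 0. Over all 56 listed histone genes with a value in either control the median was 1.27, 38 were 2-fold higher, 0 were 2-fold lower and 55 were above 0. Summed over the 66 histone genes in the table, filtered or not, FPKM was 227 in the Jeko control and 1722 in the Rec-1 control. It was 1014 and 1013 in the Jeko guide libraries, and 921 and 1600 in the Rec-1 guide libraries, so no library was as low as the Jeko control.

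All 5 histone classes took part. H2A genes were called higher in 8 of 9, H2B genes in 8 of 11, H3 genes in 3 of 3, H4 genes in 4 of 6 and H1 genes in 2 of 4. Class medians lay between 1.08 (H1) and 1.62 (H2B). Many of these genes are nearly identical copies, so the share of fragments given to each is uncertain. HIST1H3C, at 4.40 FPKM in the Jeko control and 17.5 in the Rec-1 control, was at 0 and 0.221 in the Rec-1 guide libraries.

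H2A and H2B genes are often arranged head to head with a shared promoter, and 5 such pairs had both genes past the filter, with start sites 219 to 251 bp apart in GRCh37. HIST1H2BK, with the first stretch shown above, starts 251 bp from HIST1H2AH, yet HIST1H2AH was at 3.91 and 6.85 FPKM (0.68) where HIST1H2BK differed by 4.96. HIST1H2BJ differed by 3.41 and its partner HIST1H2AG by 1.20. In the pair HIST1H2BC and HIST1H2AC it was the H2A gene that differed more, 3.48 against 1.68. HIST1H2AJ and HIST1H2BM differed by 1.61 and 1.18, and HIST1H2AM and HIST1H2BO by 1.10 and 2.36. Close start sites did not go with equal differences in the pairs that held HIST1H2BK, HIST1H2BJ and HIST1H2AC.

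**Figure D2:**
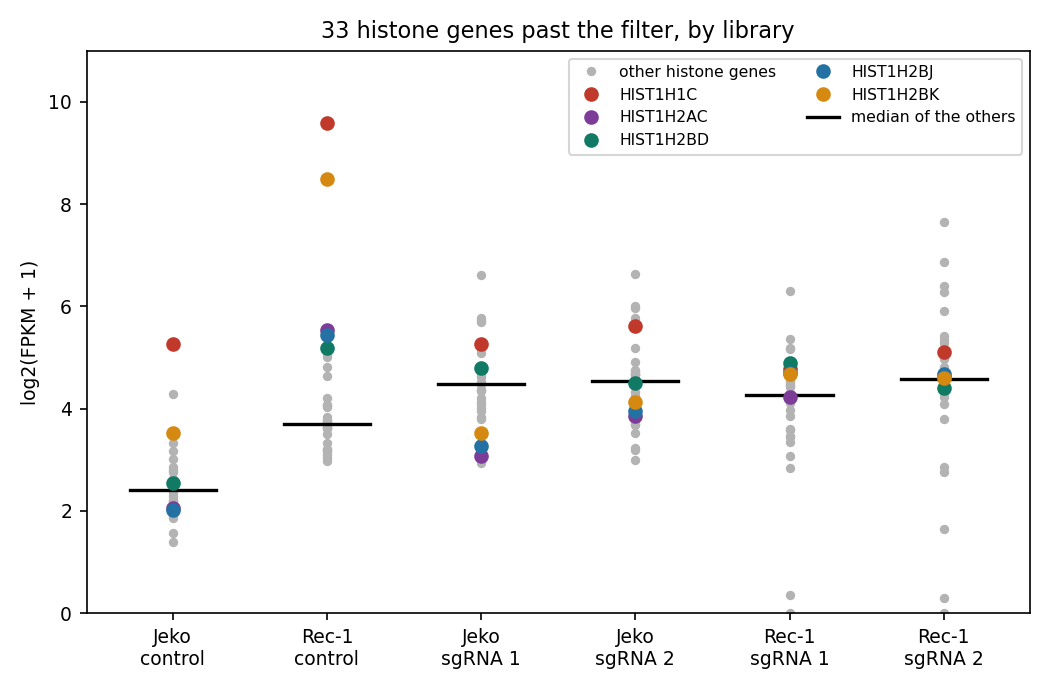
Values of 33 histone genes, as log2(FPKM + 1) on the y axis, in each of the 6 libraries on the x axis; coloured points are the 5 genes described first, grey points the other 28, and black bars the median of those 28. HIST1H1C and HIST1H2BK stand apart in the Rec-1 control, at 763 and 358.5 FPKM, while the median bar is lowest in the Jeko control, at 4.32 FPKM.

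The S-phase list lay on the other side of 0 from the histone genes, by small amounts. Of 43 genes 42 passed the filter, 0 were past 2-fold in either direction, and 40 were below 0, with a median of -0.40 and a range of -0.83 to 0.06. Over all protein-coding genes 44.7% were above 0. PCNA, the sliding clamp of DNA polymerase, was at 530 FPKM in the Jeko control and 328 in the Rec-1 control. In the other libraries PCNA was at 522 and 329 (Jeko sgRNA 1 and 2) and at 144 and 283 (Rec-1 sgRNA 1 and 2), so the Rec-1 control was level with Jeko sgRNA 2. MCM7, a subunit of the replicative helicase, was at 386 and 268 FPKM in the controls, 441 and 282 in the Jeko guide libraries, and 115 and 88.1 in the Rec-1 guide libraries. UNG, the uracil DNA glycosylase, and UHRF1, which couples DNA methylation to replication, had the lowest differences of the list, both -0.83. G2/M genes differed less, with 13 of 40 above 0 and a median of -0.10.

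Among immediate early genes, 5 of the 25 that passed the filter (42 listed) were higher in the Rec-1 control and 1 was lower, beside 0.885% and 0.18% of all protein-coding genes. Of the 5, 3 (FOS, EGR1 and DUSP5) were under 5 FPKM in the Jeko control and passed the filter only through the Rec-1 control, so they had to differ. In all, 20 of 25 were above 0 and the median was 0.53, against -0.03 for protein-coding genes. FOS, the AP-1 subunit (chr14:75745529-75748933, plus strand), was at 1.05 FPKM in the Jeko control and 19.1 in the Rec-1 control (3.30). It was at 17.3 and 15.4 in the Jeko guide libraries and 1.47 and 1.55 in the Rec-1 guide libraries. EGR1, a zinc finger transcription factor (chr5:137801168-137804992, plus strand), was at 2.12 and 25.7 FPKM in the controls (3.09), 33.7 and 32.0 in the Jeko guide libraries, and 7.96 and 5.95 in the Rec-1 guide libraries. For both genes the Jeko control was the lowest of the 6 libraries, and the Rec-1 control was near the Jeko guide libraries.

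EGR1 is a classical target of serum response factor, and the stretch before its start site is printed to show the CArG boxes this factor binds, in capitals, 105 to 96 and 83 to 74 bases before the start.
EGR1, chr5:138465229-138465478, plus strand, GRCh38.p14: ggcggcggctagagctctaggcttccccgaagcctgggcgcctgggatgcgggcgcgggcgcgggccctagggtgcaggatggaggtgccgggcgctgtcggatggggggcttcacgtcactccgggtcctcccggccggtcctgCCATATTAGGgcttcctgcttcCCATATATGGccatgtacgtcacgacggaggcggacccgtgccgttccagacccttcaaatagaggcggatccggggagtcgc
Of the 39 higher genes that were not histones, 27 matched a promoter window. A CArG box was present in 1 of the 27 (3.70%), against 1.14% of all windows. The count says nothing about the factor, which also binds outside this window.

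The other immediate early genes past 2-fold had varied patterns. DUSP5, a nuclear phosphatase of ERK, was at 1.36 FPKM in the Jeko control and 11.4 in the Rec-1 control (2.39), with the guide libraries at 0.534, 3.98, 1.36 and 2.86, so that the Rec-1 control stood highest. DUSP2, a related phosphatase, was at 11.7 and 28.9 (1.23), with guide libraries between 12.3 and 25.5, so that the Jeko control was the lowest of the 6 here too. PPP1R15A, the stress-induced regulatory subunit that restores translation by dephosphorylating eIF2α, was at 50.3 and 105.6 FPKM (1.05). It was at 14.99 in Jeko sgRNA 1 and 105.9 in Jeko sgRNA 2, a range wider than that between the controls. RGS2, a regulator of G protein signalling, was lower in the Rec-1 control, 13.9 against 5.61 FPKM (-1.17), and was at 4.95 and 3.79 in the Jeko guide libraries and 24.96 and 27.9 in the Rec-1 guide libraries. JUNB, another AP-1 subunit, was at 27.5 and 53.8 FPKM (0.95) and MYC at 302 and 437 (0.53), both short of 2-fold. NAB2, a corepressor induced by EGR1 and outside the list, was named after its values were seen: it was at 7.57 FPKM in the Jeko control and 25.5 in the Rec-1 control (1.63). Over all 38 listed genes with a value in either control, 8 were 2-fold higher and 1 was 2-fold lower.

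Of the NF-κB target list 17 of 33 genes passed the filter, 3 were higher (17.6%, against 0.885% of all protein-coding genes) and 0 lower, and the median was 0.10. The 3 were secreted factors, and CCL3 and CCL4 had passed the filter only through the Rec-1 control. CCL3, a chemokine that B cells secrete after receptor stimulation (chr17:34415602-34417515, minus strand), was at 2.35 FPKM in the Jeko control and 93.4 in the Rec-1 control, 39.7 times as high (4.82). Its guide libraries were at 1.72 and 5.74 (Jeko) and at 0 and 0.095 (Rec-1), so the Rec-1 control stood alone. CCL4, its neighbour and relative (chr17:34431220-34433014, plus strand), was at 0.417 and 16.2 FPKM (3.60), with guide libraries at 0.574, 3.48, 0.079 and 0.12. IL10, the gene of interleukin 10, was at 7.70 and 29.4 FPKM (1.80), with 7.18 and 12.03 in the Jeko and 0.057 and 0.158 in the Rec-1 guide libraries. NFKBIA, the inhibitor that NF-κB itself induces, was at 129 and 105 FPKM (-0.29), and RELA at 26.9 and 27.7 (0.04).

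**Figure D3:**
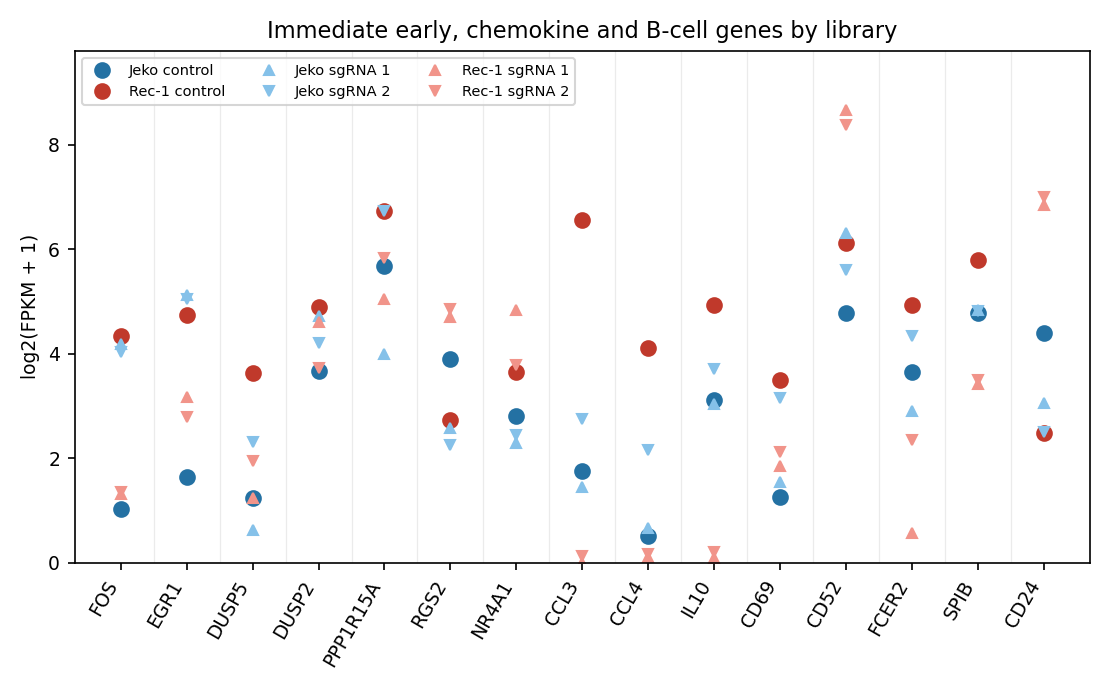
Each column on the x axis is a gene and each point its value, as log2(FPKM + 1) on the y axis, in 1 of the 6 libraries; large circles are the controls (blue Jeko, red Rec-1) and triangles the guide libraries. The Rec-1 control is highest of the 6 for CCL3, CCL4, IL10 and CD69, and lies beside the Jeko guide libraries for FOS.

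Most B-cell genes were short of 2-fold, but the share called was above that of all protein-coding genes. Of 68 listed 46 passed the filter. Of these, 5 were higher (10.9%, against 0.885%) and 1 was lower (2.17%, against 0.18%), 30 were above 0 and the median was 0.27. CD69, an early activation antigen, was at 1.39 and 10.2 FPKM (2.23), with guide libraries at 1.93, 7.83, 2.62 and 3.32. CD69 passed the filter only through the Rec-1 control, so it had to differ. In CD69 the Rec-1 control was the highest of all 6 libraries.

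CD52, a small surface glycoprotein, was at 26.3 FPKM in the Jeko control and 68.1 in the Rec-1 control (1.34), inside a span from 26.3 to 404 over the 6 libraries. FCER2, the gene of CD23, was at 11.5 and 29.6 FPKM (1.29), and at 6.52 and 19.2 in the Jeko and 0.481 and 4.09 in the Rec-1 guide libraries. SPIB, an ETS factor of B cells, was at 26.6 and 54.6 FPKM (1.01), with 27.7 and 27.3 in the Jeko guide libraries. CD24, a surface glycoprotein of immature B cells, was the protein-coding gene with the lowest difference, at 20.0 FPKM in the Jeko control and 4.62 in the Rec-1 control (-1.91). It was at 7.30 and 4.65 in the Jeko guide libraries and at 113 and 126 in the Rec-1 guide libraries, so the Rec-1 control lay with the Jeko guide libraries.

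Among lineage factors, PAX5 was at 10.2 and 19.4 FPKM (0.87), EBF1 at 10.4 and 9.63 (-0.10) and IRF4 at 76.6 and 98.3 (0.36). Of 31 B-cell receptor signalling genes 27 passed the filter, 1 was higher (3.70%, against 0.885%) and 0 lower, and the list median was -0.05. BLNK, an adaptor of the receptor, was at 25.6 and 46.1 FPKM (0.82), and CD79B differed by 0.79, both short of 2-fold. BTK, the kinase that ibrutinib inhibits, was at 67.1 FPKM in the Jeko control and 66.2 in the Rec-1 control (-0.02), and SYK at 21.5 and 14.8 (-0.52). The mantle cell lymphoma list had 19 of 26 genes past the filter, 0 higher and 1 lower (5.26%, against 0.18% of all protein-coding genes), with a median of -0.10. The lower gene was CNN3, a calponin, at 32.4 and 13.9 FPKM (-1.16), with 45.8 and 20.1 in the Jeko guide libraries and 0.053 and 0.099 in the Rec-1 guide libraries. CDK4, the partner of cyclin D1, was at 296 and 294 FPKM (-0.01) and BCL2 at 39.1 and 38.6 (-0.02).

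Stress genes gave few calls. Of 24 heat shock genes past the filter 0 were called, 7 were above 0, and the median was -0.20. HSP90AB1, a cytosolic chaperone, was at 871 and 759 FPKM (-0.20) and HSPD1, a mitochondrial one, at 573 and 483 (-0.25). Of 25 genes of the endoplasmic reticulum and the unfolded protein response 0 were called and the median was 0.03. SEC61B, a translocon subunit, was at 374 and 348 FPKM, and CALR, a chaperone of the same compartment, at 359 and 229 (-0.65). Of 18 oxidative stress genes 0 were called and 4 were above 0, with a median of -0.24. FTL, the ferritin light chain, was at 1406 and 1549 FPKM (0.14), and PRDX1, a peroxiredoxin, at 773 and 611 (-0.34). Of 15 p53 targets 0 were called and the median was -0.16, with CDKN1A at 117.5 and 158 FPKM (0.42) and BAX at 152 and 126 (-0.26).

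Targets of ATF4, the factor of the amino acid response, were the stress list with the most genes above 0, 25 of 28. Over all protein-coding genes 44.7% were above 0. The list median was 0.24, and 1 gene alone was higher (3.57%, against 0.885% of all protein-coding genes). CBS, which starts the transsulfuration of homocysteine, was at 6.68 FPKM in the Jeko control and 18.03 in the Rec-1 control (1.31). It was at 2.14 and 19.7 in the Jeko guide libraries, so the spread within the Jeko-labelled libraries exceeded the control difference. WARS, a tRNA synthetase, was at 157 and 312 FPKM (0.99), and DDIT4, an inhibitor of mTORC1, at 200 and 377 (0.91). Between Jeko sgRNA 2 and sgRNA 1 the same list was above 0 in 28 of 28 genes, with a median of 1.13.

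The lipid, hypoxia, antigen presentation and housekeeping lists gave 2 calls. Cholesterol and fatty acid synthesis genes were above 0 in 4 of 23, against 44.7% of all protein-coding genes, with a median of -0.37. They had 1 call, a lower gene (4.35%, against 0.18% of all protein-coding genes). That call was FDFT1, squalene synthase, at 81.6 FPKM in the Jeko control and 35.1 in the Rec-1 control (-1.19), with 47.1 and 22.4 in the Jeko and 192 and 119 in the Rec-1 guide libraries. Of 28 hypoxia and glycolysis genes 1 was higher (3.57%, against 0.885% of all protein-coding genes), with a list median of -0.08. It was ADM, the gene of the peptide adrenomedullin, at 10.8 and 29.7 FPKM (1.37). The 6 MHC class I genes were all below 0, with a median of -0.27, and B2M, their light chain, was at 2328 and 1597 FPKM (-0.54). The 6 MHC class II genes had a median of -0.21, and CD74, the invariant chain, was at 2444 and 1730 FPKM (-0.50). Proteasome genes were above 0 in 4 of 31 (median -0.25), with PSMB4 at 540 and 423 FPKM and PSMA7 at 343 and 321. Medians were 0.02 for 13 interferon response genes, 0.01 for 13 BCL2 family genes, 0.16 for 7 nuclear receptors and -0.06 for 76 ribosomal protein genes, with 0 calls in each.

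**Figure D4:**
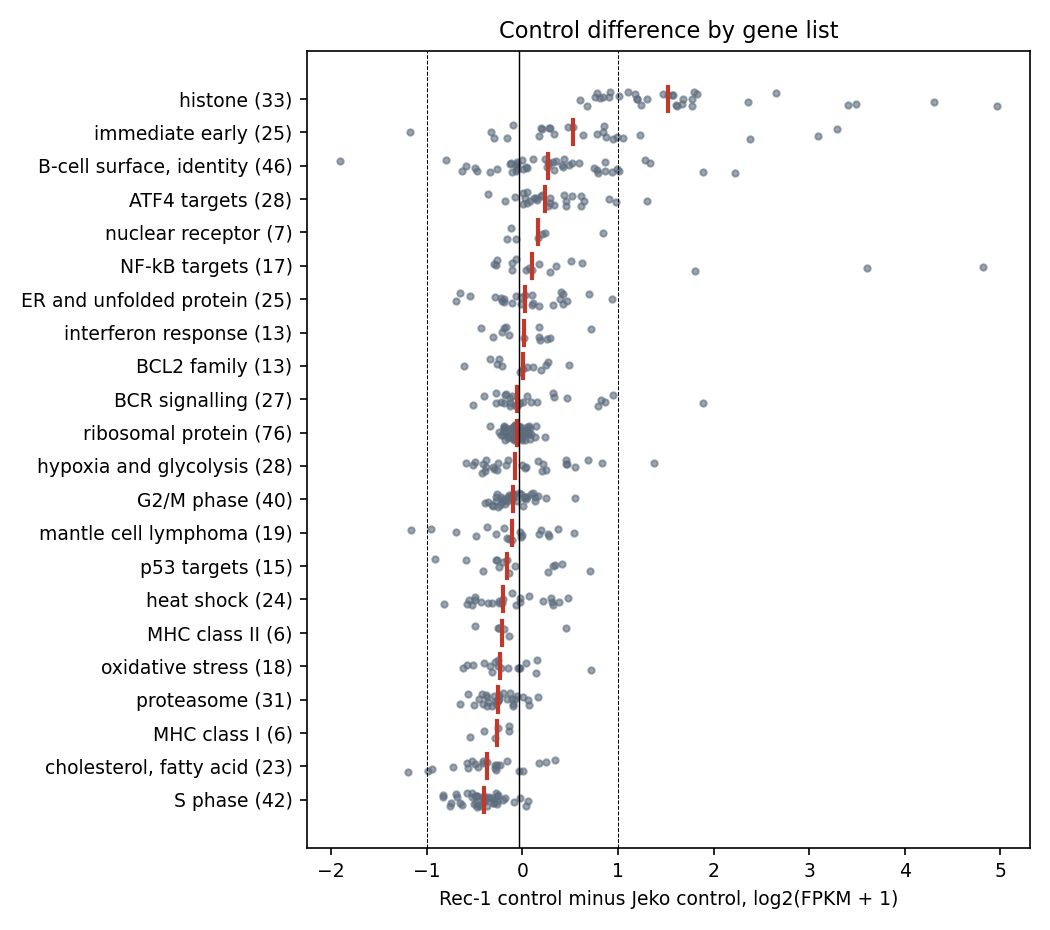
The x axis gives the Rec-1 control minus the Jeko control in log2(FPKM + 1); each row is a gene list with its number of genes past the filter, each point a gene and each red bar the list's median. The solid line is the median of all protein-coding genes (-0.03) and the dashed lines mark 2-fold. The histone list lies farthest to the right, with a median of 1.52, and the S-phase list farthest to the left, at -0.40.

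Outside these lists, ANXA1, the calcium-dependent phospholipid-binding protein annexin A1, was among the 12 protein-coding genes with the highest differences. It was at 1.20 FPKM in the Jeko control and 14.7 in the Rec-1 control (2.84), at 4.004 and 4.66 in the Jeko guide libraries, and listed at 0 in both Rec-1 guide libraries. ANXA1 passed the filter only through the Rec-1 control, so it had to differ. The 12 lowest genes were CD24, FDFT1, RGS2 and CNN3, given above, and 8 more. UNC13C, a synaptic vesicle priming protein, was at 13.7 and 4.94 FPKM (-1.31), and TMSB15A, a thymosin that binds actin monomers, at 14.1 and 5.17 (-1.29). AHNAK, a giant scaffold protein, was at 8.90 and 3.29 (-1.21). UNC13C, TMSB15A and AHNAK were each under 0.02 FPKM in both Rec-1 guide libraries, far below the Rec-1 control. BLOC1S5, a subunit of the BLOC-1 complex of lysosome-related organelles, was at 8.60 and 3.14 (-1.22), with 9.19 and 2.92 in Jeko sgRNA 1 and 2. The rest were SAMD1 (-1.15), LRRC20 (-1.11), C14orf132 (-1.07) and NETO2 (-1.06). CD24, UNC13C, AHNAK, BLOC1S5, LRRC20, C14orf132 and NETO2 were under 5 FPKM in the Rec-1 control. They passed the filter only through the Jeko control, so they had to differ to some extent.

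The called genes were then followed in the 4 guide libraries, which took no part in choosing them. They give the same contrast of line labels once more. The Rec-1 guide libraries, though, differed from the Rec-1 control in CCND1, as given above. They also differed from it in the T and NK cell list. The summed FPKM of that list was 154 and 170 in Rec-1 sgRNA 1 and 2, against 6.22 in the Rec-1 control. Of the 64 higher genes 28 were above 0 in the guide line difference (43.8%, against 42.5% of all protein-coding genes). Of these 64, 9 were 2-fold higher and 16 were 2-fold lower, beside 520 and 952 of all 7229 protein-coding genes. Of the 13 lower genes 8 were below 0, beside 4158 of the 7229. Between the 2 Jeko guide libraries, 48 of the 64 higher genes were higher in sgRNA 2 than in sgRNA 1 (75.0%, against 45.1% of all protein-coding genes), 17 of them by 2-fold, with 0 lower by 2-fold. Over all 7229 protein-coding genes 199 were higher and 63 lower by 2-fold. Of the 13 lower genes 12 were lower in sgRNA 2, 4 of them by 2-fold, beside 3967 lower among the 7229. Between the 2 Rec-1 guide libraries 41 of the 64 were higher in sgRNA 2 (64.1%, against 54.6%).

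Between Jeko sgRNA 2 and 1, 20 of the 25 higher histone genes were above 0, none by 2-fold. Without them, 28 of the 39 other higher genes (71.8%) were above 0 in that difference, with a median of 0.80, and all 17 that were 2-fold higher were among these. Across 7229 protein-coding genes the control difference had a Pearson r of 0.426 with the Jeko guide difference, 0.144 with the Rec-1 guide difference and 0.116 with the guide line difference. These are descriptions over genes of the same libraries, and what sets the Jeko guide libraries apart from each other was not tested. UNC5B, a netrin receptor, and ASS1, argininosuccinate synthase, were named after their values were seen. UNC5B was at 2.53 and 7.70 FPKM in the controls (1.30) and at 0.473 and 15.5 in Jeko sgRNA 1 and 2. ASS1 was at 49.7 and 115.5 in the controls (1.20) and at 27.8 and 212 in Jeko sgRNA 1 and 2. For both, the span between the Jeko guide libraries was wider than that between the controls.

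**Figure D5:**
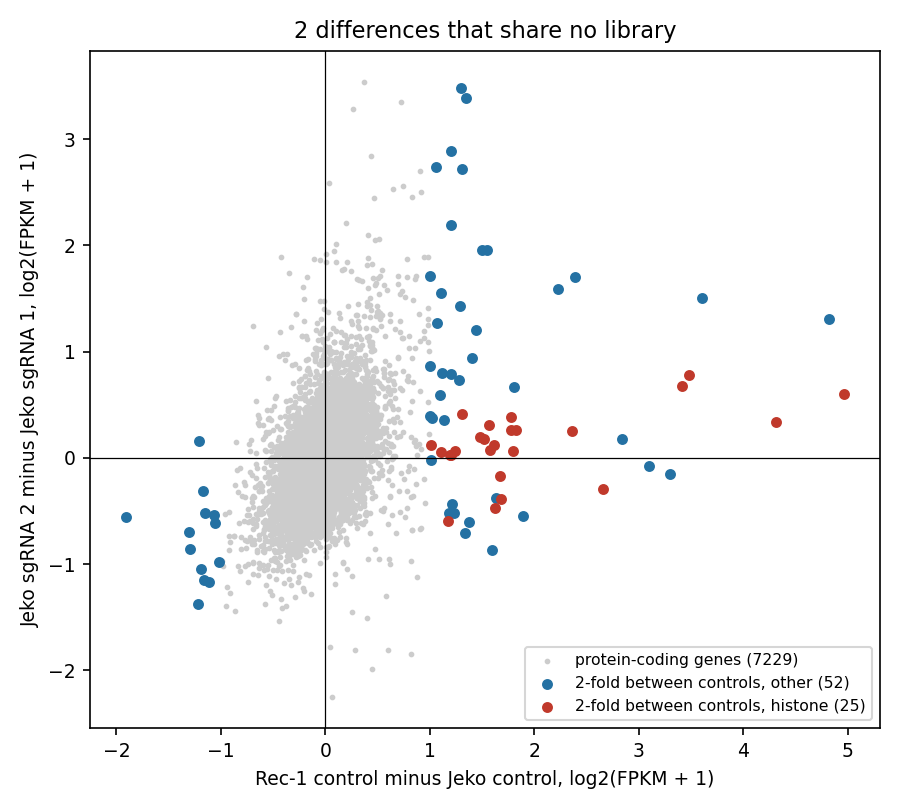
The x axis gives the Rec-1 control minus the Jeko control and the y axis Jeko sgRNA 2 minus Jeko sgRNA 1, both in log2(FPKM + 1), with each point a protein-coding gene. Of the 64 genes called higher on the x axis 48 lie above 0 on the y axis, and of the 13 called lower 12 lie below it; the called histone genes (red) lie between -0.59 (HIST1H2BM) and 0.78 (HIST1H2AC) on the y axis.

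Which library stood out differed from gene to gene. Among the 64 higher genes the Rec-1 control was the highest of all 6 libraries in 33 and the Jeko control the lowest of all 6 in 33, and some genes were both. Of the 25 higher histone genes 22 had their lowest value in the Jeko control. Among the 13 lower genes the Rec-1 control was lowest in 5 and the Jeko control highest in 3.

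Small RNA rows made up most of the calls and are a separate matter. There were 231 of them past the filter, small nucleolar RNAs and microRNA hairpins among them. Of these, 147 (63.6%) were past 2-fold, 79 higher and 68 lower. The share was 2.93% over all rows, small RNA rows included, and 1.07% over protein-coding rows. Of these 147, 101 were listed at 0 in 1 control, 48 in the Jeko control and 53 in the Rec-1 control, while the other control was between 10.1 and 1338 FPKM. A row at 0 in 1 control passed the filter only through the other control, so all 101 had to be past 2-fold. FPKM divides by length, and these transcripts are short: the hairpin of MIR4649, the row with the highest difference, is 64 nt long and is printed here to show that length.
MIR4649 hairpin, chr7:44110849-44110912, plus strand, GRCh38.p14: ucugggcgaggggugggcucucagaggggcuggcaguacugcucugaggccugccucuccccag
The MIR4649 row was listed at 0 FPKM in the Jeko control and at 1324 in the Rec-1 control, and at 264 in Jeko sgRNA 2 and 0 in the other guide libraries. SNORD44, a guide of ribosomal RNA methylation, was at 1338 FPKM in the Jeko control and listed at 0 in the Rec-1 control, and at 511 and 404 in the Jeko guide libraries. SNORD18C had 1110 FPKM in the Rec-1 control while the other 5 libraries listed it at 0. The next highest rows were SNORD102, SNORD36B and MIR6840, at 789, 741 and 494 FPKM in the Rec-1 control and 0 in the Jeko control. The next lowest were MIR7113, SNORD63, SNORD110 and MIR6820, at 1249, 548, 384 and 383 FPKM in the Jeko control and 0 in the Rec-1 control. Of the 101 rows 41 were listed at 0 in all 4 guide libraries. Exact values were shared between rows in 57 of 183 small RNA rows above 0 in the Jeko control and in 41 of 178 in the Rec-1 control. Of the 130 small RNA rows above 0 in both controls 46 were past 2-fold. Longer noncoding RNAs did not share this: 1 of 152 was past 2-fold, LINC00467, at 7.54 and 16.6 FPKM.

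The share of genes called differed with their level. Among protein-coding genes with a mean of 5 to 10 FPKM 36 of 1931 (1.86%) were called, from 10 to 50 FPKM 35 of 3782 (0.925%), and at 50 FPKM or more 6 of 1516 (0.396%). Just inside the limit for higher genes was RGS19 (1.00) and just outside it ZFP36L1 (0.99); on the lower side these were PLAUR (-1.02) and SCD (-0.99). At the filter GALNT7 was just inside and BBS7 just outside.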

How the data were processed

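RNA from 6 libraries was taken through an Illumina TruSeq RNA kit, per the labels' protocols. The authors deposited 1 table of FPKM values with a column per library, per the file headers; TopHat and hg19 are named in the submitters' processing notes. The program that computed FPKM, its annotation, the use of strand and any poly(A) selection are not given in the sources used here. FPKM are already scaled for library size and length, so no count test was used. Absolute depth is unknown, and no counting interval was computed. FPKM summed to 1031928 in the Jeko control and 1097886 in the Rec-1 control, with 15999 and 16150 rows above 0. Among rows under 0.05 FPKM in both, 284 of 870 (32.6%) shared 1 ratio, 0.909, which puts the Rec-1 control at a relative depth of 1.10.

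Values were analysed as log2(FPKM + 1), with a filter of 5 FPKM on the mean of the controls and a 2-fold threshold (Python 3.11.15, numpy 2.4.6, pandas 2.3.3, matplotlib 3.10.9). The comparison was tested on simulated data. Of the rows past the filter 7553 matched the GENCODE annotation of GRCh37 or RefSeq names. Rows with no match were classed by RefSeq biotype or by a small RNA name where possible. All 7712 rows comprised 7229 protein-coding, 231 small RNA and 152 other noncoding rows, 13 names turned into dates by spreadsheet software, and 87 rows left without a class. The members and the 29 gene lists were chosen with earlier results of these data known. Genes named were NR4A1, CCND1 and SOX11, the 12 highest and 12 lowest protein-coding and 5 highest and 5 lowest noncoding differences, list genes past 2-fold, and the 2 most abundant genes of lists with none; others are named as examples, chosen after their values were seen. Alternatives were the pseudocount, filter, scaling, threshold and each sgRNA library left out. Results of 1 listed gene are not reported here one by one; it stays in the counts and medians of its lists.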

Additional observations from a re-analysis of the deposited data

Results flagged for a closer look

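For 18 protein-coding genes past 2-fold between the controls, the line difference in the mean of the guide libraries was also 2-fold or more and had the opposite sign in every pairing of a Rec-1 with a Jeko sgRNA library (guide library). The opposition was not tested, since each line has 1 control. Over all protein-coding genes 20.4% were past 2-fold in that guide line difference. In the direction of the control difference, 9 of the 64 higher and 5 of the 13 lower genes were past 2-fold there. Values are the mean of the Rec-1 minus the mean of the Jeko guide libraries in log2(FPKM + 1).

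Of these 18, 15 were higher in the Rec-1 control but lower in the Rec-1 guide libraries. HIST1H3C was at -4.40, ADM at -3.36, IL10 at -3.22 and FOS at -2.79. ANXA1 was at -2.41, UNC5B at -2.25, FCER2 at -2.17 and EGR1 at -2.10. PHACTR1, a regulator of protein phosphatase 1 and actin, was at -2.09, CCL3 at -2.03 and C1orf186 at -1.80. SMIM14 was at -1.66, BANK1, a B-cell scaffold protein, at -1.65, SPIB at -1.37 and CCL4 at -1.27.

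The other 3 were lower in the Rec-1 control but higher in the Rec-1 guide libraries: CD24 at 4.14, RGS2 at 2.36 and FDFT1 at 2.18. FOS, EGR1, CCL3, CCL4, ANXA1, HIST1H3C, UNC5B and C1orf186 were under 5 FPKM in the Jeko control, and CD24 in the Rec-1 control. Each passed the filter only through the other control, so it had to differ between the controls to some extent.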

How the results depend on the processing

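The 63 named genes past 2-fold that were recomputed kept their direction and their 2-fold difference with a pseudocount of 0.1, with protein-coding FPKM scaled to the same sum and with centring on the median. That scaling moved the median difference by 0.07. With the pseudocount of 0.1, 8 B-cell genes were higher, not 5. A mean of at least 1 FPKM gave 98 higher and 20 lower protein-coding genes and 38 higher histones, and no filter gave 103 higher and 21 lower. A mean of at least 20 FPKM gave 125 rows, 20 higher and 2 lower genes, 5 histones, 2 immediate early genes and 1 NF-κB target, with 145 calls between the Jeko and 82 between the Rec-1 sgRNA libraries (262 and 174 at 5 FPKM). Of its called genes 10 had the same sign in the sgRNA line difference and 14 higher ones were also higher in Jeko sgRNA 2. Protein-coding genes alone gave 77 calls. A 1.5-fold threshold gave 521 rows, 200 higher and 123 lower genes, 12 immediate early and 13 B-cell genes, 1065 and 1051 calls between sgRNA libraries, 192 genes of the same sign and 146 higher in Jeko sgRNA 2. A 3-fold threshold gave 145 rows, 25 higher genes and 1 lower, 69 and 15 calls, 12 of the same sign and 16 higher in Jeko sgRNA 2. All listed genes with a value in either control, an alternative chosen after seeing the data, gave 38 higher histones and 8 immediate early genes. The number of called genes with the same sign in the sgRNA line difference was 36, and 29 to 44 when any 1 sgRNA library was left out. The unknown depth limits what can be said of low values. No paired analysis was possible because each line has 1 control and no test was made.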
